A study of Mus musculus with 10 samples.

Results

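The genes described here are the 10 that encode the NF-kB subunits and the IkB family of inhibitors in mouse bone marrow-derived dendritic cells (BMDCs). They were taken from the table by symbol, as members of 1 gene family, with earlier results of these data known: the canonical subunits Nfkb1, Rela and Rel, the non-canonical subunits Nfkb2 and Relb, the classical inhibitors Nfkbia, Nfkbib and Nfkbie, and the atypical inhibitor-like proteins Nfkbiz and Bcl3. All 10 were found among the 24385 gene symbols of the RNA count table, and all 10 passed the filter on low counts that left 13075 genes for testing. BMDCs are antigen-presenting cells that arise when marrow progenitors are kept in GM-CSF, a myeloid growth factor. Marrow came from female wild-type C57BL/6 mice of 8 to 10 weeks and was cultured over 7 days, with GM-CSF at 20 ng/mL. Cells that did not adhere were taken as immature BMDCs on day 6 and exposed for 24 h either to apple mango leaf extract (AMLE, 400 µg/mL) or to the vehicle DMSO (0.04%). RNA sequencing covered 3 DMSO and 3 AMLE libraries, while 2 libraries a group were made for ATAC sequencing, in which a transposase cuts accessible DNA and so marks open chromatin. No genetic change was made in either group. The labels do not say whether the extract cultures also held DMSO, so the extract and any difference in DMSO cannot be told apart. The labels do not say whether mice were pooled or whether replicates were separate cultures, so p-values measure the spread between these libraries only, which may be technical.

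NF-kB proteins are transcription factors that bind DNA as dimers and are held inactive in the cytoplasm by IkB proteins. In the canonical pathway, receptor signals activate the IKK complex, which marks the IkB proteins for destruction and frees dimers containing RelA or c-Rel. In the non-canonical pathway, the kinase NIK accumulates and drives the processing of the Nfkb2 product p100 to p52, which pairs with RelB. In dendritic cells these factors are known for driving maturation, cytokine production and co-stimulation. Several of the pathway's own genes, among them Nfkbia, are known targets of NF-kB. RNA levels do not report the protein amount, the processing or the location in the cell of any of these factors.

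The stretches of promoter below are shown because all 4 have an ATAC peak over the annotated start in every library and each holds a match to the sequence that NF-kB dimers bind. Each is the 250 bases before a start in RefSeq (GRCm38.p6, the same build as the mm10 of the peak lists), written 5′ to 3′ on the gene's strand. Capitals mark matches to the kappaB consensus in that stretch, searched on both strands, with overlapping matches joined. The Rel stretch is chr11:23770970-23771219 (minus strand), the Nfkb2 stretch chr19:46304487-46304736 (plus), the Nfkbia stretch chr12:55492648-55492897 (minus) and the Nfkbie stretch chr17:45555450-45555699 (plus). The Nfkb2 stretch lies before the first of its 3 tabled starts and inside the annotated gene.
Rel: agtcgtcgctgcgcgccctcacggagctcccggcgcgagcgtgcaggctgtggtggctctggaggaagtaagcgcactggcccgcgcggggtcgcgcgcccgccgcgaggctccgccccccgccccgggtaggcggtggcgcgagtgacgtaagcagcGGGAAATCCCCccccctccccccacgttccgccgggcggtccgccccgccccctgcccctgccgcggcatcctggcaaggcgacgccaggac
Nfkb2: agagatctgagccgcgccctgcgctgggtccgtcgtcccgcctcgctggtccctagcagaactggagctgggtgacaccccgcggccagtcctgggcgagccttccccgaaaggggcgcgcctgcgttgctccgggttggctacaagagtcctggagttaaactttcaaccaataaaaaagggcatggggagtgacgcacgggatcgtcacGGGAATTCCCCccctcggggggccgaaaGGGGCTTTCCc
Nfkbia: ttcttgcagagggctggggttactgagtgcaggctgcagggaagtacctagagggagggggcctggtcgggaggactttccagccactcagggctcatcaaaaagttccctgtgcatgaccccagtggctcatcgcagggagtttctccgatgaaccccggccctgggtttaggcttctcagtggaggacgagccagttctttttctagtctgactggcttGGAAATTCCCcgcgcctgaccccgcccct
Nfkbie: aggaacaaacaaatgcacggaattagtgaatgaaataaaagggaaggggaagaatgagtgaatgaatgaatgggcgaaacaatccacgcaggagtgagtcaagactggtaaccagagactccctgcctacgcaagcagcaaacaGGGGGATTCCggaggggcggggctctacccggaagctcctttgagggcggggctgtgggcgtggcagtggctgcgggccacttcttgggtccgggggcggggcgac

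A window of 300 bases, which adds the 50 bases after the start, was searched for the kappaB consensus in 7 of the 10 genes, those with a tabled start. A match was found in 5 of them, namely Rel, Nfkb2, Nfkbia, Nfkbie and Bcl3, against 2581 of all 27025 genes with a tabled start (9.55%). The motif was chosen after these promoters were seen, so both counts are descriptions. Rela and Nfkbib had no match in their windows. The Rel match GGGAAATCCC began 92 bases before the start and the Nfkbia match GGAAATTCCC began 29 bases before it. Before the first Nfkb2 start, GGGAATTCCC began at 39 bases and GGGGCTTTCC at 11 bases. Nfkb2 held further matches: GGAATGTCCC at chr19:46305459-46305468 in the window of its second start, and GGGACTTTCC at chr19:46305705-46305714 in the windows of both later starts. The Nfkbie match GGGGGATTCC began 106 bases before the start, and the Bcl3 match GGGAAGTCCC at the third base of the transcript.

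A narrower form of the motif, the letters GGGA, NN and TTCC in a row on either strand, overlaps the consensus and was present in 2 of the 7 genes, Nfkb2 and Nfkbia, against 441 of 27025 genes (1.63%). The 250 bases held 57.6% to 77.6% G and C in the 7 genes, against a median of 52.4% and quartiles of 45.2% and 61.2% over all 32851 tabled windows. Nfkbie, Nfkbib and Nfkbia lay between those quartiles. No ATAC or binding measurement here identifies which factor occupies these letters.

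The question put to the RNA libraries is whether the extract changed the RNA of the NF-kB subunits and their inhibitors, and whether canonical and non-canonical subunits changed alike. Library totals ran from 26010455 to 34208286 counts. On the first principal component, which held 76.6% of the variance, the 3 DMSO libraries lay between -42.0 and -31.1 and AMLE replicates 1 and 2 at 38.3 and 46.5. AMLE replicate 3 lay at 23.0, the nearest to DMSO. Levels below are CPM, counts scaled to the same effective total in every library, by TMM scaling. Transcript lengths were not used here, so levels are compared between libraries and not between genes. In bulk RNA, more RNA per cell and more cells of an expressing type cannot be told apart.

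RNA of 9 of the 10 genes rose after AMLE (edgeR quasi-likelihood test, adjusted p under 0.05), where 48.6% of the 13075 genes tested were called, 23.0% as higher and 25.6% as lower. The tenth, Nfkbiz, did not pass the test. None of the 10 was called lower by edgeR, at an unadjusted p under 0.05, by DESeq2 or by limma-voom, so the count was 0 in each. The median log2 fold change of the 10 was 0.63, against -0.01 over all tested genes. In all 10 genes every AMLE library lay above every DMSO library, a pattern held by 28.4% of tested genes (59.7% did not overlap in either direction). The rise was at least 1.5-fold in 7 genes and at least 2-fold in 1, Rel.

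**Figure D1:**
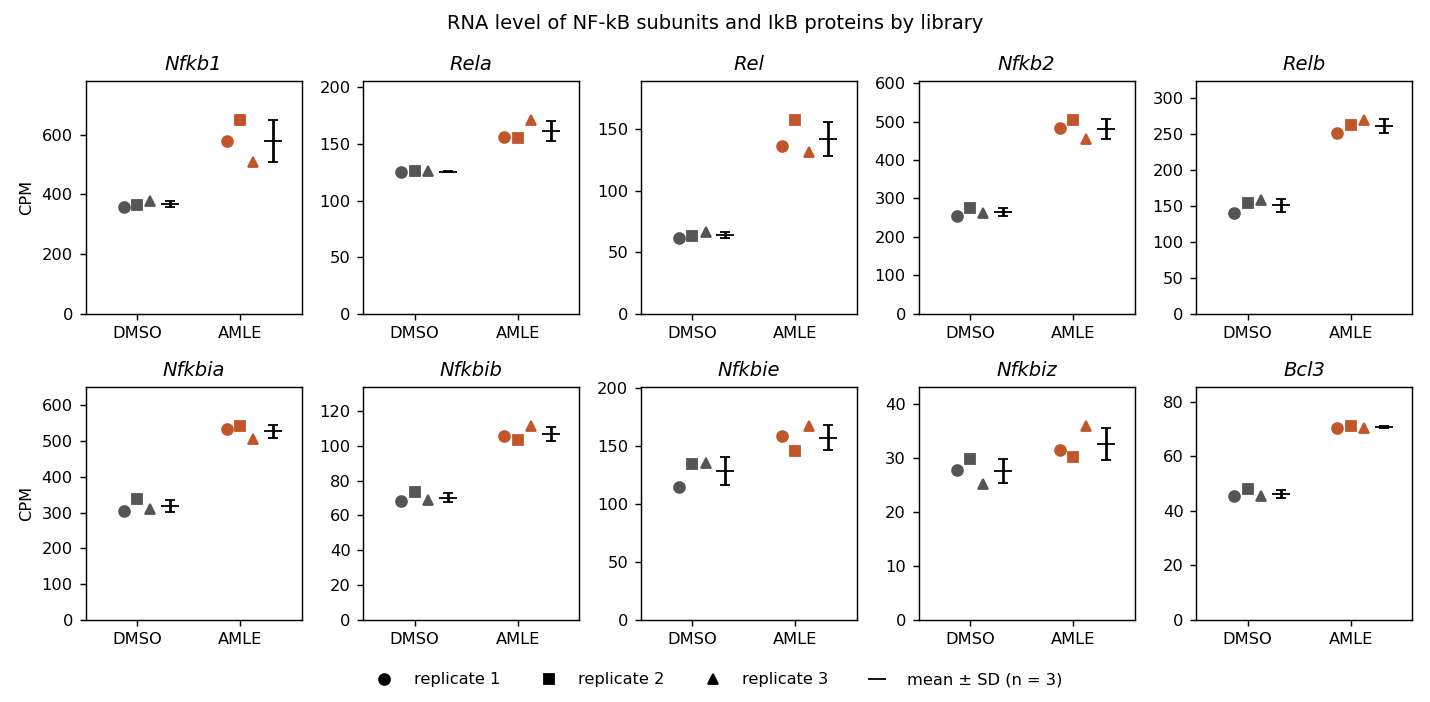
RNA level (CPM, linear axes from 0) of each gene in the 3 DMSO (grey) and 3 AMLE (orange) libraries, with one symbol per replicate number and the mean ± SD (n = 3) beside them. The AMLE libraries lie above the DMSO libraries in all 10 panels, widely for Rel (61.5 to 66.7 against 131 to 157 CPM) and narrowly for Nfkbiz (25.2 to 29.7 against 30.2 to 35.9 CPM).

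Among the canonical subunits, Rel changed the most. Rel encodes c-Rel, a subunit with a transactivation domain that is abundant in lymphoid and myeloid cells. It stood at 61.5, 63.0 and 66.7 CPM in DMSO replicates 1 to 3 and at 136, 157 and 131 CPM in AMLE replicates 1 to 3. The lowest AMLE library was thus well above the highest DMSO library, and the AMLE libraries were the more spread of the groups. The log2 fold change was 1.15 ± 0.08 (SE), or 2.22-fold, with an edgeR adjusted p of 7.8e-05.

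Nfkb1 encodes p105, which is processed to the DNA-binding subunit p50. Its level was 359, 364 and 377 CPM in the DMSO libraries and 580, 650 and 508 CPM in the AMLE libraries. AMLE replicate 3 was the lowest of its group, and the groups did not overlap. Nfkb1 rose 1.58-fold (log2 0.66 ± 0.09 SE, edgeR adjusted p = 0.00106), and 1.69-fold when AMLE replicate 3 was left out.

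Rela encodes p65, the transactivating partner of p50 in the most studied dimer. It was nearly level across the DMSO libraries at 125, 126 and 126 CPM and stood at 156, 156 and 171 CPM in the AMLE libraries. The difference was small beside those of Rel and Nfkb1 but larger than the spread within either group. Rela rose 1.28-fold (log2 0.36 ± 0.05 SE, edgeR adjusted p = 0.00134).

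Both non-canonical subunits rose by similar amounts. Nfkb2, which encodes p100, the precursor of p52, measured 254, 276 and 263 CPM in DMSO and 483, 505 and 454 CPM in AMLE. The groups were far apart, and Nfkb2 rose 1.82-fold (log2 0.86 ± 0.06 SE, edgeR adjusted p = 8.9e-05). Relb, whose product pairs mainly with p52 and p100, measured 140, 154 and 157 CPM in DMSO and 251, 261 and 269 CPM in AMLE. Its groups did not overlap either, and it rose 1.73-fold (log2 0.79 ± 0.06 SE, edgeR adjusted p = 0.000114).

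The classical inhibitors also rose, by unequal amounts. Nfkbia encodes IkB-alpha, the inhibitor that is degraded and made again fastest after a canonical signal. It measured 305, 337 and 311 CPM in DMSO and 533, 542 and 505 CPM in AMLE, a 1.66-fold rise (log2 0.73 ± 0.06 SE, edgeR adjusted p = 0.000136). Nfkbib encodes IkB-beta. It measured 68.5, 73.4 and 68.8 CPM in DMSO and 105, 103 and 111 CPM in AMLE, a 1.52-fold rise (log2 0.60 ± 0.05 SE, edgeR adjusted p = 0.000166). For both genes the AMLE libraries were close together and well above all DMSO libraries.

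Nfkbie encodes IkB-epsilon, a slower member of the classical group. It measured 115, 135 and 135 CPM in DMSO and 159, 145 and 167 CPM in AMLE, so that DMSO replicates 2 and 3 came close to AMLE replicate 2. The rise was 1.23-fold (log2 0.29 ± 0.08 SE, edgeR adjusted p = 0.0221). This call was lost without DMSO replicate 1 (log2 0.22, adjusted p = 0.0604, edgeR) and without AMLE replicate 1 (log2 0.30, adjusted p = 0.0576, edgeR). The edgeR, DESeq2 and limma-voom adjusted p lay between 0.00623 and 0.0604 over the 13 alternatives.

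The atypical proteins are mostly nuclear and act with p50 or p52 dimers as co-regulators. Bcl3 measured 45.5, 48.0 and 45.4 CPM in DMSO and 70.4, 71.0 and 70.5 CPM in AMLE. Its AMLE libraries were nearly identical and all far above DMSO, a 1.53-fold rise (log2 0.61 ± 0.05 SE, edgeR adjusted p = 0.000115). Nfkbiz, which encodes IkB-zeta, a co-activator of a subset of inflammatory genes, measured 27.7, 29.7 and 25.2 CPM in DMSO and 31.4, 30.2 and 35.9 CPM in AMLE. The highest DMSO library and the lowest AMLE library almost touched. The difference, log2 0.24 ± 0.09 (SE), did not pass the test (edgeR adjusted p = 0.061, alternatives from 0.0463 to 0.195). It passed with RLE size factors (adjusted p = 0.0463, edgeR) and without AMLE replicate 2 (adjusted p = 0.0468, edgeR).

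**Figure D2:**
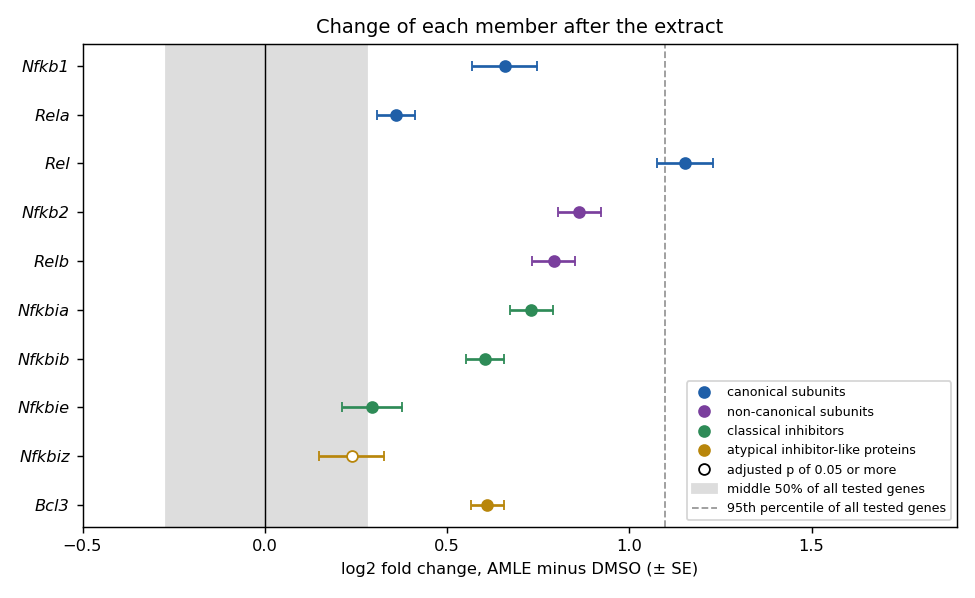
Log2 fold change of each gene, AMLE minus DMSO, with its SE, coloured by class, filled where the edgeR adjusted p was under 0.05 and set against the middle 50% of all tested genes (grey band, -0.27 to 0.28) and their 95th percentile (dashed line, 1.10). Rel (1.15) lies past the dashed line, and Nfkbiz (0.24) lies within the band.

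In order of log2 fold change, the genes were Rel, Nfkb2, Relb, Nfkbia, Nfkb1, Bcl3, Nfkbib, Rela, Nfkbie and Nfkbiz. Neighbours in this order lay closer than the sum of their SEs, except that Rel stood above Nfkb2 and Nfkbib above Rela by more. Differences between genes were not tested. By percentile of log2 fold change among all tested genes, the 10 ran from 72.1 (Nfkbiz) to 95.6 (Rel). By class, 3 of 3 canonical subunits rose (median log2 0.66), as did 2 of 2 non-canonical subunits (0.83), 3 of 3 classical inhibitors (0.60) and 1 of 2 atypical proteins (0.42). Over all tested genes, 23.0% were called higher.

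Ratios of genes within a library do not depend on scaling between libraries, and each is given here relative to the DMSO mean of that ratio. The ratio of the mean of non-canonical to the mean of canonical subunits (log2 means) was 0.967, 1.04 and 0.994 in the DMSO libraries and 1.08, 1.04 and 1.12 in the AMLE libraries. The mean change was 1.08-fold, and DMSO replicate 2 lay just above AMLE replicate 2, so the groups overlapped. Between libraries of the same number the ratio was higher in AMLE in 2 of 3 pairs, though shared numbers do not establish pairing. With 3 libraries a group, an exact two-sided permutation test cannot go below p = 0.1, so these ratios are given as descriptions.

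Ratios between single subunits differed more between the groups. The ratio of Rel to Rela was 0.972, 0.987 and 1.04 in DMSO and 1.72, 1.99 and 1.51 in AMLE, a mean change of 1.73-fold. Relb to Rela was 0.938, 1.02 and 1.04 in DMSO and 1.34, 1.40 and 1.31 in AMLE, a mean change of 1.35-fold. Both ratios were higher in every AMLE library than in any DMSO library, so RNA for c-Rel and RelB was higher relative to that for p65. Nfkb2 to Nfkb1 was 0.982, 1.05 and 0.966 in DMSO and 1.16, 1.08 and 1.24 in AMLE, without overlap.

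Among the inhibitors, Nfkbie was lower relative to Nfkbia in AMLE. The ratio of Nfkbie to Nfkbia was 0.932, 0.991 and 1.08 in DMSO and 0.739, 0.665 and 0.820 in AMLE, without overlap, so its AMLE mean was 0.739 of the DMSO mean. Nfkbib to Nfkbia was 1.02, 0.984 and 1.00 in DMSO and 0.892, 0.861 and 0.996 in AMLE. AMLE replicate 3 lay within the DMSO range, so this ratio overlapped. Between libraries of the same number it was lower in AMLE in 3 of 3 pairs. For number 3 the values were 1.00 in DMSO and 0.996 in AMLE, and shared numbers do not establish pairing.

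**Figure D3:**
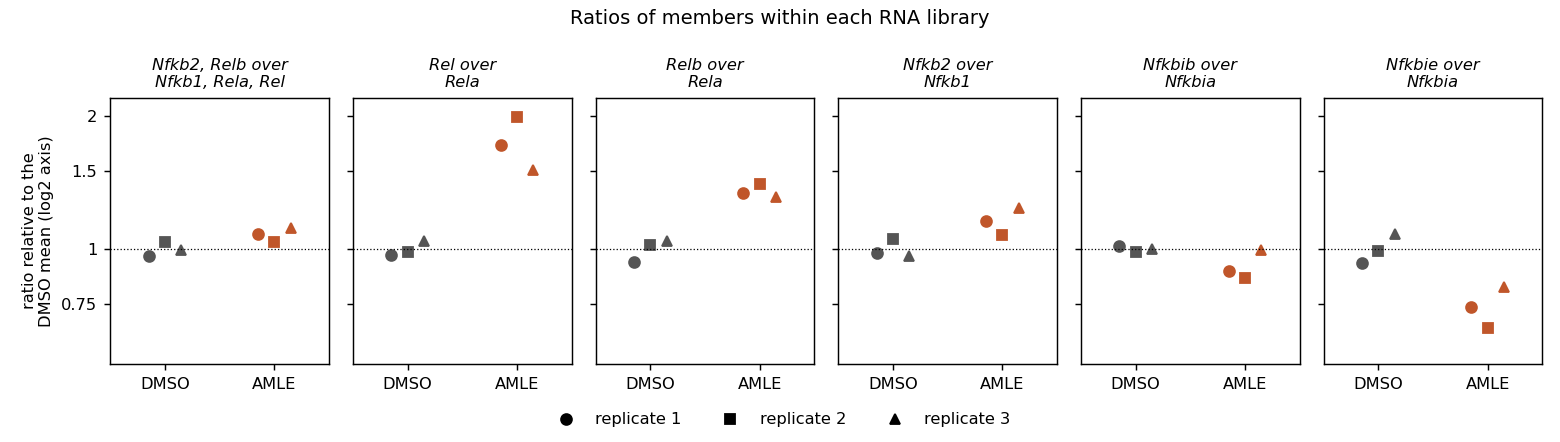
Ratios of genes within each RNA library, relative to the DMSO mean (log2 axis), for 3 DMSO (grey) and 3 AMLE (orange) libraries with one symbol per replicate number. Rel over Rela reaches 1.51 to 1.99 in the AMLE libraries, while the ratio of non-canonical to canonical subunits overlaps between the groups.

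The genes whose log2 CPM followed Rel most closely over the 6 libraries were Vwa5a, Atmin, Trim35, Sptan1 and Irf8, each with a Pearson r of 0.999 among 8963 genes with a mean of at least 10 CPM. Irf8, a transcription factor of the dendritic cell lineage, differed by 1.88 on the log2 scale between the groups. The points share 2 groups of libraries, and 1593 genes had an r over 0.9, so the likeness mainly restates the difference between the groups.

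The rest of the pathway was followed through 68 other genes in 5 lists: receptors, adaptors and ubiquitin ligases, kinases, negative regulators and target genes. Of these, 38 rose, 9 fell and 21 did not pass the edgeR test, with a median log2 fold change of 0.30, beside 23.0% higher and 25.6% lower over all tested genes. Differences between the lists were not tested.

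Among 12 receptors that feed NF-kB, 4 rose and 3 fell (median log2 0.09), shares near those of all tested genes. Cd40, a receptor that signals to both branches, was 17.6 ± 1.71 CPM in DMSO and 96.4 ± 18.8 CPM in AMLE (SD, n = 3), a log2 rise of 2.45 ± 0.16 (SE). Tnfrsf9, which encodes 4-1BB, rose by 1.49 ± 0.13 and Tnfrsf11a, which encodes RANK, by 0.72 ± 0.10. The fourth that rose was Tnfrsf4 (0.40). Those that fell were Tlr2, Tnfrsf1a and Ltbr, with log2 fold changes of -0.71, -0.46 and -0.32. Tnfrsf4 and these 3 were chosen after their values were seen. The Tlr2 call (edgeR adjusted p = 0.0431) was lost in 6 of 13 alternatives, those without a count filter or without any 1 library other than AMLE replicate 3.

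Among 13 adaptors and ubiquitin ligases, 5 rose and 1, the Toll-like receptor adaptor Myd88 (log2 -0.30), fell. Of all tested genes, 23.0% rose and 25.6% fell. Birc2 and Birc3, which encode the cellular IAP ubiquitin ligases, rose by 0.87 ± 0.09 and 0.77 ± 0.05 on the log2 scale. Traf6, a ubiquitin ligase downstream of Toll-like receptors and CD40, rose by 0.61 ± 0.06.

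Among 11 kinases and their partners, 5 rose and 1, Tab1 (log2 -0.34), fell, beside 23.0% and 25.6% of all tested genes. Map3k14, which encodes NIK, the kinase that starts the non-canonical pathway, was 144 ± 10.2 CPM in DMSO and 300.1 ± 13.8 CPM in AMLE (SD, n = 3), a log2 rise of 1.06 ± 0.07 (SE). Ikbkg, which encodes the IKK scaffold NEMO, rose by 0.67 ± 0.06, and Map3k8, which encodes TPL2, by 0.50 ± 0.07. Of the catalytic IKK subunits, chosen after their values were seen, Ikbkb rose by 0.38 ± 0.05 and Chuk had a log2 fold change of -0.01 ± 0.04 (edgeR adjusted p = 0.804). Ikbke (0.29) and Tbk1 (0.15), kinases related to IKK, missed the threshold at edgeR adjusted p of 0.0507 and 0.0523, and passed it in 7 and 4 of the 13 alternatives. With the replicate number as a block their adjusted p was 0.0015 and 0.0201 (edgeR), which raised the count of kinases that rose from 5 to 7, where 26.3% of all tested genes rose with the block. The receptor Tnfrsf1b went from 0.0506 to 0.0038 with the block (edgeR adjusted p) and passed in 5 of the 13 alternatives.

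Among 12 negative regulators, 7 rose and 4 fell, beside 23.0% and 25.6% of all tested genes. Traf1, a signalling adaptor that is also a common NF-kB target, rose by 1.18 ± 0.10 on the log2 scale, and Tnfaip3, which encodes the ubiquitin-editing enzyme A20, by 0.67 ± 0.06. Nkrf, which encodes a nuclear repressor of NF-kB targets, fell by 0.55 on the log2 scale. The others that fell were Commd1 and Pdlim2, both at -0.37, and the atypical IkB gene Nfkbid at -0.18 (edgeR adjusted p = 0.0408). These 3 were named after their values were seen, and the Nfkbid call was lost with RLE size factors, with DESeq2 and without any 1 library other than DMSO replicate 3.

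Among 20 target genes, chosen with earlier results of these data known, 17 rose and none fell in edgeR. Over all tested genes these shares were 23.0% and 25.6%. The median log2 fold change of the 20 was 1.02. At an unadjusted p under 0.05, 1 was lower, as it was by DESeq2, and 0 by limma-voom. Ccl22, a chemokine of mature dendritic cells, went from 2272 ± 152 to 10202 ± 2274 CPM (SD, n = 3), a log2 rise of 2.17 ± 0.16 (SE). The cytokine gene Il6 rose by 2.12 ± 0.34, and the chemokine gene Cxcl1 by 1.71 ± 0.37 from a level of 0.512 ± 0.195 CPM (SD, n = 3). Those that did not pass were Tnf, Ptgs2 and Ebi3, named after their values were seen, with log2 fold changes of -0.40, 0.03 and 0.05. Tnf had an edgeR adjusted p of 0.0662, and 0.0283 by DESeq2. Without AMLE replicate 3 its edgeR adjusted p was 0.012.

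**Figure D4:**
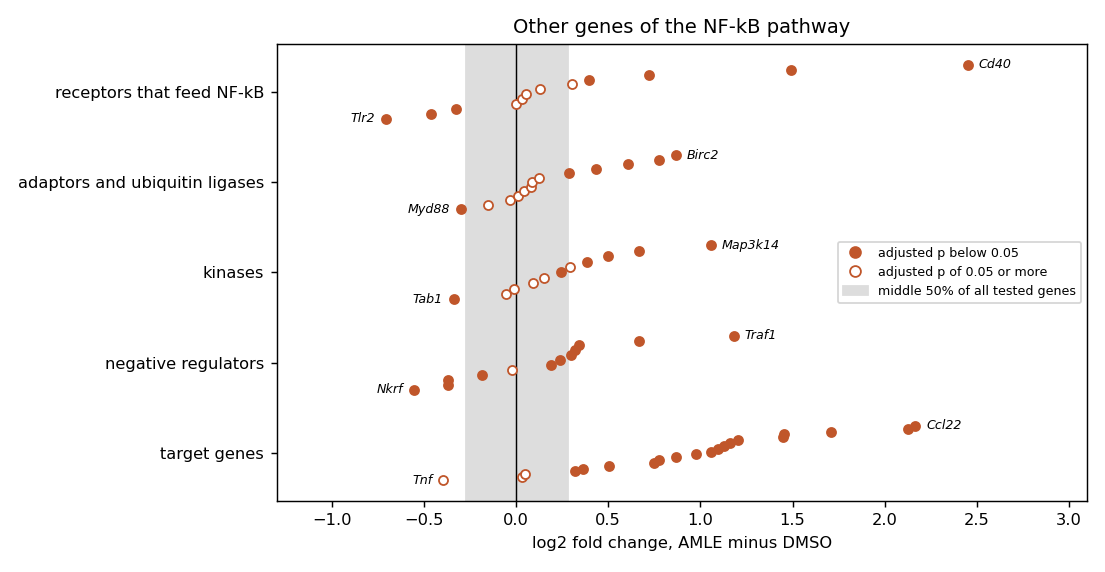
Log2 fold change, AMLE minus DMSO, of the 68 other pathway genes by list, filled where the edgeR adjusted p was under 0.05, with the highest and lowest gene of each list named and the middle 50% of all tested genes in grey. In the target list 17 of 20 genes are filled and to the right of 0, while receptors run from Tlr2 (-0.71) to Cd40 (2.45). Of all tested genes, 23.0% were called higher and 25.6% lower.

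Markers of the cell types that such cultures can hold were measured beside these changes. Over all tested genes, 23.0% were called higher and 25.6% lower, or 26.3% and 29.2% with the replicate block. Of 10 dendritic cell markers, 3 rose (Flt3, Zbtb46 and Csf2rb) and 1 fell (H2-Ab1). The summed level of the 10 was 9591 to 13234 CPM in DMSO and 9907 to 11903 CPM in AMLE, mostly from Cd74 and Csf2rb. Itgax, which encodes the defining integrin CD11c, was 708 ± 101 CPM in DMSO and 688 ± 78.6 CPM in AMLE (SD, n = 3), and is shared with some macrophages. The others did not move alike: Flt3, a receptor of the dendritic cell lineage, was 4.81-fold higher, and H2-Ab1, an MHC class II gene, was 0.617 of its DMSO level. With the replicate block 6 of the 10 were called lower, Cd74, H2-Aa, H2-Eb1, Csf2ra and Ciita besides H2-Ab1. Of 8 macrophage markers, 6 fell and 1, Adgre1, rose (7 and 1 with the block). Their sum was 406 to 627 CPM in DMSO and 219 to 249 CPM in AMLE, where Adgre1 made up most of it. The complement genes C1qa, C1qb and C1qc were at 0.0315, 0.0435 and 0.0426 of their DMSO levels. Of 7 granulocyte and precursor markers, 5 fell (7 with the block), with sums of 9681 to 15863 and 7492 to 10874 CPM that were mostly S100a8 and S100a9. The granule genes Elane and Mpo were at 0.0405 and 0.124 of their DMSO levels. The markers singled out by name were chosen after their values were seen.

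Of 5 mast cell and basophil markers, 3 rose (5 with the block), with sums of 109 to 185 CPM in DMSO and 197 to 421 CPM in AMLE. Of 4 T cell markers that could be tested, 2 rose (3 with the block). These numbers of markers called stand beside 23.0% of all tested genes called higher, and 26.3% with the block. The T cell sums, which include the untested Cd3e, were 1.93 to 3.37 CPM in DMSO and 4.97 to 10.2 CPM in AMLE. Cd3e had 55 counts in AMLE replicate 2 and 0 to 9 in the other libraries. The sum of 5 B cell markers was 26.0 to 37.7 CPM in DMSO and 26.9 to 38.6 CPM in AMLE. The part of these differences in cell markers in the NF-kB and IkB results was not tested.

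In the ATAC libraries the question was whether open chromatin at these genes differed between the groups. The lists held 18460 and 19225 distinct peak intervals in DMSO replicates 1 and 2 and 15805 and 15597 in AMLE replicates 1 and 2. Of these, 22 and 25 in DMSO and 18 and 20 in AMLE lay in the 10 genes or within 5000 bases of them. As a share of all intervals this was 0.119% and 0.130% in DMSO and 0.114% and 0.128% in AMLE, so the lower numbers in AMLE went with shorter lists. With 2 libraries a group an exact two-sided test cannot go below p = 0.333, and presence of a peak is given without a test.

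When the 4 lists were merged, 25 intervals lay in or near the 10 genes, and 17 of them (68.0%) were held by all 4 libraries, against 49.0% of all 24542 merged intervals. None of the 25 was held by both AMLE libraries and neither DMSO library, against 0.460% of all intervals. Those held by both DMSO libraries and neither AMLE library numbered 2 (8.0%), against 5.95% of all intervals. The other 6 were held by 1 or 3 libraries.

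At the annotated starts, taken as 1000 bases before to 100 after, all 7 genes with a tabled start had a peak in all 4 libraries, against 65.9% of 9978 tested genes. Where peak and window had to share at least 50% of the shorter one, these numbers were 4 of 7 and 43.1%. Rel's interval, chr11:23769947-23771668, covered the start and the 5′ end of the gene and carried one of the stronger peaks of each list. By the authors' q-value it ranked at the 91.4 and 89.8 percentiles in the DMSO lists and the 93.0 and 91.1 percentiles in the AMLE lists. The Nfkb2 interval, chr19:46304215-46305770, lay inside the gene, reached 2 of its 3 starts and ranked at the 95.2, 94.0, 96.9 and 96.7 percentiles in DMSO 1, DMSO 2, AMLE 1 and AMLE 2. It also held the start of the neighbouring gene 4833438C02Rik. The Nfkbia interval, chr12:55491771-55493016, ranked at the 88.4, 91.0, 92.0 and 91.7 percentiles in the same order. These 3 peaks thus ranked high by q-value in each list of both groups. By the authors' fold over background the Nfkbia peak lay mid-list, at the 44.1, 48.5, 52.3 and 49.5 percentiles. The kappaB matches printed above for Rel, Nfkb2, Nfkbia and Nfkbie lay under a peak in every library.

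Rela had a start interval at chr19:5636866-5637966 and a further one at chr19:5648680-5649717, beyond its other end, both in all 4 libraries. The Nfkbie start interval, chr17:45555469-45556068, ranked lower by q-value, at the 53.0, 53.8, 61.0 and 45.0 percentiles in DMSO 1, DMSO 2, AMLE 1 and AMLE 2. Its second shared interval, at chr17:45563410-45564617, held the start of the neighbour Slc35b2. The Nfkbib interval, chr7:28766234-28766844, held the start of the neighbour Sirt2 as well. Bcl3 had 3 intervals in all 4 libraries. That in its start window, chr7:19823569-19824439, lay 745 bases beyond the annotated gene, and the others, chr7:19816136-19816674 and chr7:19817261-19818128, lay inside it. The interval at chr7:19816136-19816674 also held the start of the overlapping gene Gm16174. Only DMSO replicate 1 had a peak in the 250 bases before the Bcl3 start. The kappaB match of Bcl3 lay under no peak in any library.

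Nfkb1, Relb and Nfkbiz were placed by their annotated ends. Relb had a peak in all 4 libraries inside its end of higher coordinate, chr7:19628371-19629405, which ranked at the 99.1, 98.4, 97.9 and 98.5 percentiles by q-value in DMSO 1, DMSO 2, AMLE 1 and AMLE 2. The other Relb interval in all 4 libraries, chr7:19604001-19604771, lay outside the gene and held the start of the neighbour Clasrp. Nfkbiz had a peak over its end of higher coordinate, chr16:55838615-55839428, and another inside the gene at chr16:55821697-55822608, both in all 4 libraries. At the lower ends of these 3 genes no library had a peak within 1000 bases.

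Nfkb1 was the gene whose intervals varied most between libraries. It held 6 of the 25 intervals, and DMSO replicates 1 and 2 had 4 and 6 of them, AMLE replicates 1 and 2 had 2 and 3. The interval at chr3:135628156-135629411, inside the gene, was held by all 4 libraries. The one at the end of higher coordinate, chr3:135691288-135691585, was held by DMSO replicate 2 and both AMLE libraries but not by DMSO replicate 1. Both intervals held by the DMSO libraries alone lay in Nfkb1.

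The first of these, chr3:135608198-135608509, also covered the start of the gene Gm46827 and had a −log10 q of 5.44 and 4.38 in DMSO replicates 1 and 2. The second, chr3:135635374-135636271, had a −log10 q of 2.35 and 3.19, near the bottom of each list at the 5.37 and 9.68 percentiles. Both were weak peaks, and neither was kept in both DMSO libraries when a −log10 q of at least 5 was asked for. RNA of Nfkb1 was higher in every AMLE library than in any DMSO library, as given above.

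**Figure D5:**
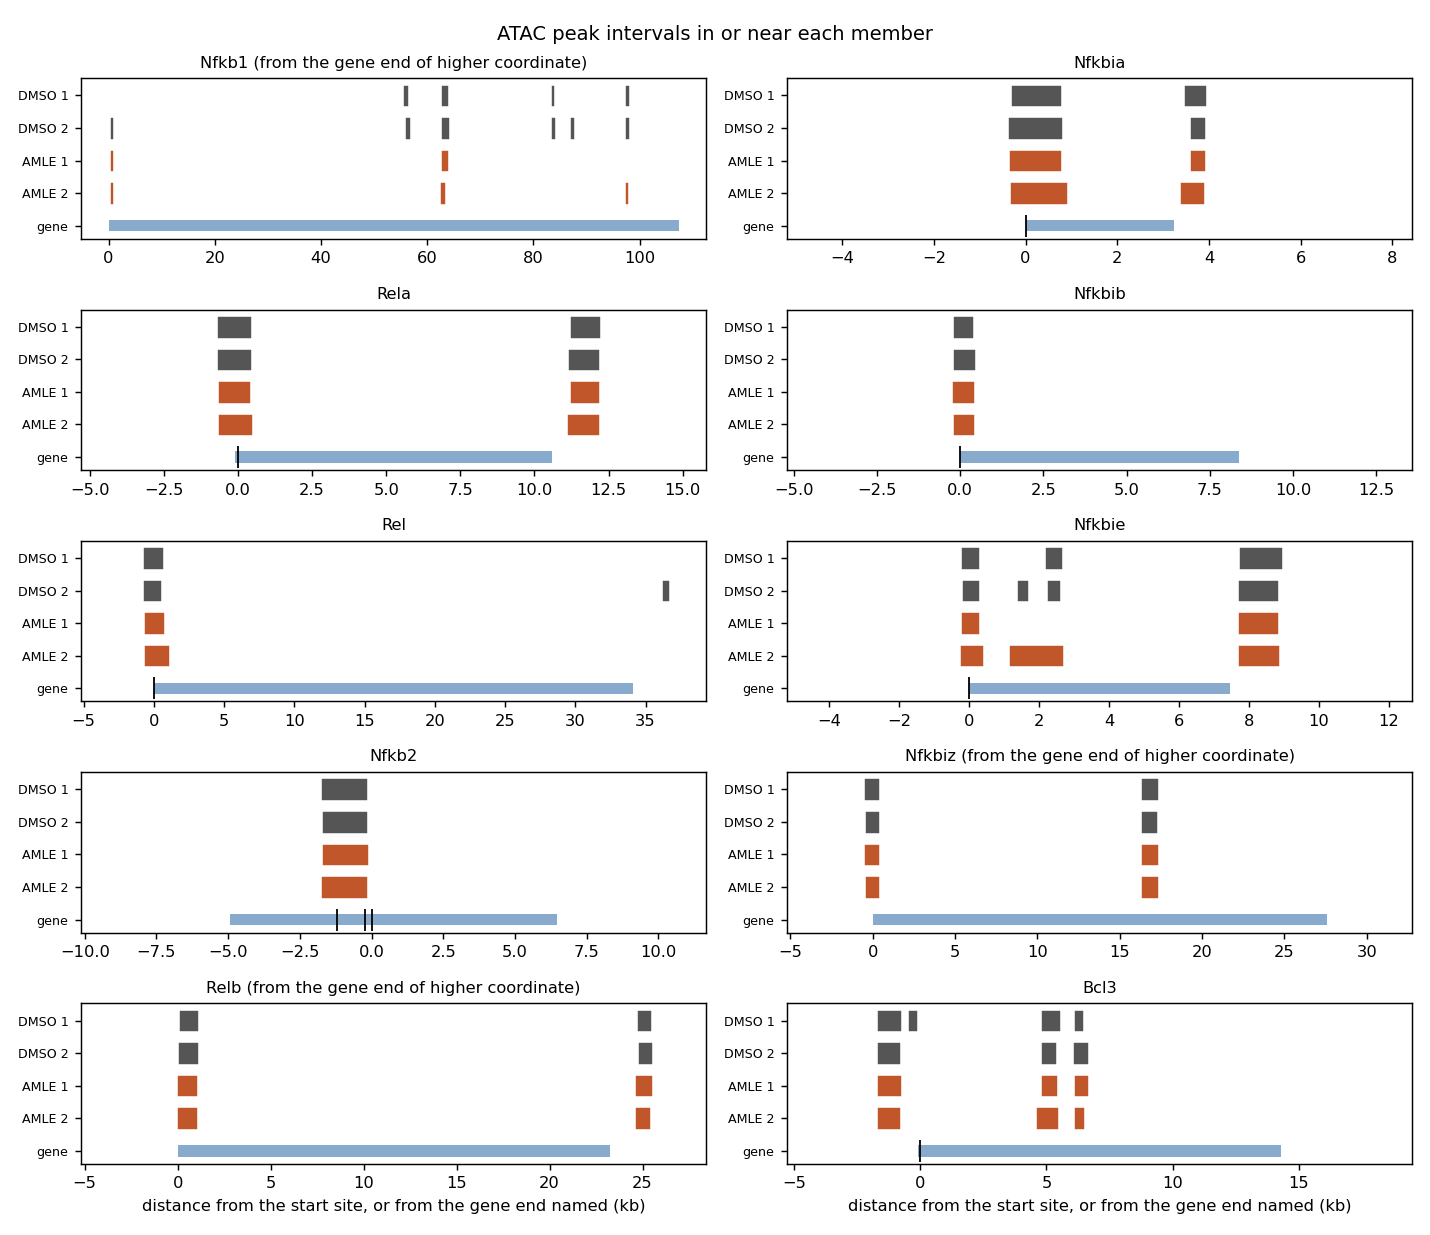
ATAC peak intervals in or within 5 kb of each gene in the DMSO (grey) and AMLE (orange) libraries, against distance in kb from the annotated start in the direction of the gene (black ticks, last tick for Nfkb2) or, for Nfkb1, Relb and Nfkbiz, from the gene end of higher coordinate. Most intervals line up in all 4 rows, while Nfkb1, the longest gene, has 4 and 6 intervals in the DMSO rows and 2 and 3 in the AMLE rows.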

How the data were processed

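The submitters' processing notes name, without roles and for build mm10, the read mappers STAR 2.7.11b and Bowtie2 2.4.4 and the peak caller MACS3 3.0.0a7 beside Trim Galore 0.6.7 and SAMtools 1.7. How genes were counted (tool, strand, annotation) and how peaks were called is not given in the sources used here. Overlapping or antisense genes could therefore share reads. The authors deposited raw read counts per gene symbol. They deposited 1 ATAC peak list per library, with a fold enrichment (a ratio over background) and a −log10 q per summit. Both are the authors' own peak values, and peaks were ranked by them or left out within 1 list at a time. Summits of 1 peak were merged into distinct intervals.

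Counts were fitted in R 4.3.3 with edgeR 4.0.16 (TMM, the default low-count filter with a minimum count of 10, robust quasi-likelihood F test, two-sided, Benjamini-Hochberg over 13075 genes). Genes were called below an adjusted p of 0.05. The SE is approximate, derived from F and the log2 fold change. DESeq2 1.42.0 and limma-voom (limma 3.58.1) were alternatives, with other scalings, filters and priors, a replicate block and each library left out. The fit was tested on simulated data. A merged interval counted as held by a library whose peak overlapped it by at least 1 base. The gene table matched 24277 symbols and, like the promoters, came from RefSeq GRCm38.p6; the kappaB motif was chosen after the promoters were seen. Nfkb1, Relb and Nfkbiz were not matched in the promoter table.

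The genes and lists were chosen with earlier results of these data known. All 10 genes were named, with the 3 called genes of largest absolute log2 fold change per pathway list and the 5 genes most like the most changed gene. Replicate numbers in the titles were used to match DMSO and AMLE libraries for the block. Deviations from the group means correlated at 0.292, 0.280 and 0.431 for same-numbered libraries 1, 2 and 3, above the 0.1 asked of every pair. DMSO 1 with AMLE 2 (0.110) and DMSO 2 with AMLE 1 (0.105) also passed, so this cut cannot establish pairing. The other unlike-numbered pairs lay between -0.310 and -0.266. The main fit did not use pairs. Counting error was not measured apart from other differences between libraries. The number of libraries limits the precision.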

Additional observations from a re-analysis of the deposited data

How the results depend on the processing

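Over the 13 RNA alternatives no log2 fold change of the 10 genes changed sign. The 10 genes gave 8 to 10 higher and 0 lower with each library left out. In the same fits 2263 to 3308 of all tested genes were called higher and 2666 to 3475 lower. With the replicate number as a block, 9 of the 10 rose and 0 fell, 41 and 9 of the other 68 pathway genes did, and 3434 and 3813 of all genes. The block changed no call of the 10 genes; the pathway and marker genes whose calls it changed are given with them. Other scalings moved the median of all genes by at most 0.0146 on the log2 scale. The peak results moved with their definition. Where peaks had to share at least 50% of the shorter interval, 4 of the 7 genes kept a start peak in all 4 libraries, and 1 interval was held by both DMSO libraries only. That number was also 1 with a −log10 q of at least 5, and the interval was then another one in Nfkb1. Within 20000 bases of the genes, DMSO replicate 1 had 34 peaks and AMLE replicate 1 had 28. Without counts per peak, differences in the strength of open chromatin could not be tested.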
